A study of Homo sapiens with 3 samples.

Results

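The loci of RUNX1, RUNX2 and RUNX3, with the acetylated domain that lies downstream of RUNX2, held 46 TEAD regions and 65 H3K27ac regions, 111 of the 87908 regions in both lists. Members are all regions whose summit falls in one of 3 hg19 windows: chr6:45250000-45730000 for RUNX2, chr21:36110000-36480000 for RUNX1 and chr1:25180000-25340000 for RUNX3. The windows were chosen by the measured positions of TEAD and H3K27ac summits and by the rank of the downstream domain, so the values below are descriptions and none was tested. RUNX2 held 20 TEAD and 33 H3K27ac regions, RUNX1 held 22 and 28, and RUNX3 held 4 and 4.

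The study profiled 786-O cells, an established human clear cell renal carcinoma line that lacks functional VHL, by ChIP-seq. It has 1 TEAD library, 1 H3K27ac library and 1 input library, all from cells of the same line with no treatment named in the labels. The series' title concerns a complex of TEAD with NF-κB in this cancer. With 1 library per antibody, no value has a replicate check, and a region is a peak of the authors' deposited list on chromosomes 1 to 22 or X.

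RUNX proteins are transcription factors that bind DNA through the runt domain together with CBFB. RUNX1 is known as a regulator of blood cell formation, RUNX2 as the master regulator of bone-forming cells, and RUNX3 for roles in T cells and sensory neurons. Each gene is read from a distal and a proximal start that give proteins with different N-terminal ends. TEAD proteins bind DNA and recruit the Hippo pathway co-activators YAP and TAZ, and H3K27ac marks nucleosomes at promoters and enhancers in use.

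The promoter sequences of the family are shown because TEAD regions covered a start of RUNX2 and both named starts of RUNX1. They come from RefSeq on GRCh38.p14, run from 250 bases before to 50 bases after the start, and are written 5′ to 3′ on the gene's strand. Capitals mark the TEAD motif CATTCC and the RUNX motif ACCACA, each searched on both strands, so that a match on the other strand reads as its reverse complement. All 3 genes matched the table, which gave 5 promoters. The RUNX1 promoter in it lies inside the gene's span and is its proximal one.
RUNX2 distal, chr6:45328080-45328379, plus strand: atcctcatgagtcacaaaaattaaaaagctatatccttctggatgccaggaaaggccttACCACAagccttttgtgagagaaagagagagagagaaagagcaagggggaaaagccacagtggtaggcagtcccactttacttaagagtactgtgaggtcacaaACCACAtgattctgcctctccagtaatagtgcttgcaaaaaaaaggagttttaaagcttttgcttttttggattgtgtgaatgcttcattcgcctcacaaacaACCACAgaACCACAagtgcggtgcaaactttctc
RUNX2 proximal, chr6:45422025-45422324, plus strand: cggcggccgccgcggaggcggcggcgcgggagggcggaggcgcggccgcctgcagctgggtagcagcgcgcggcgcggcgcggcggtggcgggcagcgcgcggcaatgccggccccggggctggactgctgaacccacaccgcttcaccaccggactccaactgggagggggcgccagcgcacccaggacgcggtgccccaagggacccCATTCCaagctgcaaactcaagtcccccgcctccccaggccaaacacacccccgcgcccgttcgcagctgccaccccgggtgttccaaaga
RUNX1 proximal, chr21:34888650-34888949, minus strand: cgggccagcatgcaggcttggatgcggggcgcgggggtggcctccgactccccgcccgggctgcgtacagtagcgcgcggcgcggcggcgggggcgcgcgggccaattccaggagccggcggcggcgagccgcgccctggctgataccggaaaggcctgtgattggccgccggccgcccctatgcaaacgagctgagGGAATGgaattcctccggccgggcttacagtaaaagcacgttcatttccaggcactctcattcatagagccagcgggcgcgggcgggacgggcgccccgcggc
RUNX3 distal, chr1:24964961-24965260, minus strand: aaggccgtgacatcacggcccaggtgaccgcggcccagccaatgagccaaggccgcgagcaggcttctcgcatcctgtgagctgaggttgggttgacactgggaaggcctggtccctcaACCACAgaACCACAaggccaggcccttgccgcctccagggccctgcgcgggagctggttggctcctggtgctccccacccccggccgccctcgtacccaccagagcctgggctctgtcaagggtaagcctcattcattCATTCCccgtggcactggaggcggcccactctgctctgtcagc
RUNX3 proximal, chr1:24930227-24930526, minus strand: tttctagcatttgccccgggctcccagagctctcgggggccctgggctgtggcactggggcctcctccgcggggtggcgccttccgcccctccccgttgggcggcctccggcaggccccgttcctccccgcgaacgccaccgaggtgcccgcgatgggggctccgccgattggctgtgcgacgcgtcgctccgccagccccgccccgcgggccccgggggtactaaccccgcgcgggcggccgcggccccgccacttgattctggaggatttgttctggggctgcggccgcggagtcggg

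RUNX motifs were found in the distal promoters of RUNX2 and RUNX3. The RUNX2 distal promoter held 4, whose first bases lie at -191, -87, 16 and 24 from the start base, which counts as 0. The RUNX3 distal promoter held 2, at -131 and -123. The RUNX motif occurred in 13.1% of the 35116 RefSeq promoters of the same length, and 2 or more copies in 1.31% of them. A pair of RUNX motifs in each of these distal promoters sits in a stretch of 18 bases that both share, found in no promoter of another gene in the table. The table has no distal promoter of RUNX1, so whether that promoter holds the stretch or the motifs was not searched.
Shared stretch of the RUNX2 and RUNX3 distal promoters: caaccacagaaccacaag
It begins 14 bases past the start of RUNX2 and 133 bases before the start of RUNX3. The TEAD motif occurred once in 3 of the 5 promoters, at -41 in the RUNX2 proximal, -53 in the RUNX1 proximal and 7 in the RUNX3 distal promoter, against 14% of all promoters. A motif of AP-1, a factor often found beside TEAD at enhancers, spelled TGANTCA, was present once, at -243 in the RUNX2 distal promoter, against 7.71% of all promoters. The NF-κB motif was matched in 0 of the 5 promoters and in 5.91% of all. No matches of these motifs overlapped each other. A match describes letters in the window and shows no binding. The GC content was 42.7% in the RUNX2 distal promoter, 66.3% in the RUNX3 distal promoter, 72% in the RUNX1 proximal promoter and 76% in the proximal promoters of RUNX2 and RUNX3, with a median of 58.7% over all promoters.

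The libraries were read through the pileup at each summit, which was recovered from the deposited fold and p-value. Fold is the summit pileup over the caller's local background, with 1 read added to each. The summit pileup ran between 11 and 182 reads at the TEAD members, with a median of 32.5, against a median of 24 over the whole TEAD list. The recovered background at these summits had a median of 2.83 reads, against 2.45 in the whole list. Intervals on folds are exact 95% Poisson intervals of the pileup, with the recovered background held fixed, and those on shares are 95% Wilson intervals. They cover only the error of counting, since no molecular identifiers are named and reads may be copies.

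At the start of RUNX2, TEAD and H3K27ac were found together. The TEAD region chr6:45295529-45296293 covers the distal start at 45296054, and its summit lies 188 bp upstream. It reached 10.4-fold (95% interval 7.35 to 14.4) on a pileup of 35 reads. It lies inside the H3K27ac region chr6:45294844-45297250, which reached 11.2-fold. This was the only TEAD region of the window within 2 kb of that start.

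The RUNX2 gene body held a cluster of acetylation with strong TEAD summits near its far edge. From 45386787 to 45416275, H3K27ac regions joined over gaps of up to 12.5 kb made a domain of 29.5 kb with 10 H3K27ac and 3 TEAD regions, rank 130 of 22587 such domains. Rank is by fold times width, summed over a domain's regions, and the 863 above the point of slope 1 on the scaled rank curve are called large. Its leading H3K27ac region, chr6:45386787-45395031, was 8245 bp wide and reached 36.3-fold (30.7 to 42.5), rank 80 of the 52667 H3K27ac regions. The TEAD region within it, chr6:45389492-45390016, reached 8.79-fold (6.06 to 12.4). Both stronger TEAD regions of the gene body had their summits further on, at 118 and 111 kb from the distal start.

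The TEAD region chr6:45413324-45414079 reached 37.8-fold (31.9 to 44.5) on 143 reads, rank 779 of 35241. It lies in an H3K27ac region of 10.6-fold, the weakest of the 3 that hold TEAD in this cluster. The TEAD region chr6:45406314-45407279 reached 23.04-fold (19.0 to 27.8) on 109 reads inside chr6:45401505-45408449, an H3K27ac region of 18.6-fold. So the order of TEAD folds ran opposite to the order of the H3K27ac folds around them, over 3 pairs in 1 library each. Near 49.4 kb from the start, H3K27ac region chr6:45344036-45346591 reached 18.02-fold, while the TEAD region in it reached 2.72-fold (1.65 to 4.27) over a background of 5.61 reads. At the far end of the gene, chr6:45511267-45511692 reached 3.15-fold (1.71 to 5.43) on 11 reads and bridged 2 H3K27ac regions of 4.55- and 3.68-fold without its summit being in either.

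In RefSeq the distal and proximal starts of RUNX2 are 93.9 kb apart on GRCh38.p14. In hg19, the 8.79-fold TEAD summit lies 93.7 kb and the 36.3-fold H3K27ac summit 95.3 kb downstream of the distal start. These are distances within separate builds that were not aligned, so no region is assigned to the proximal start.

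**Figure D1:**
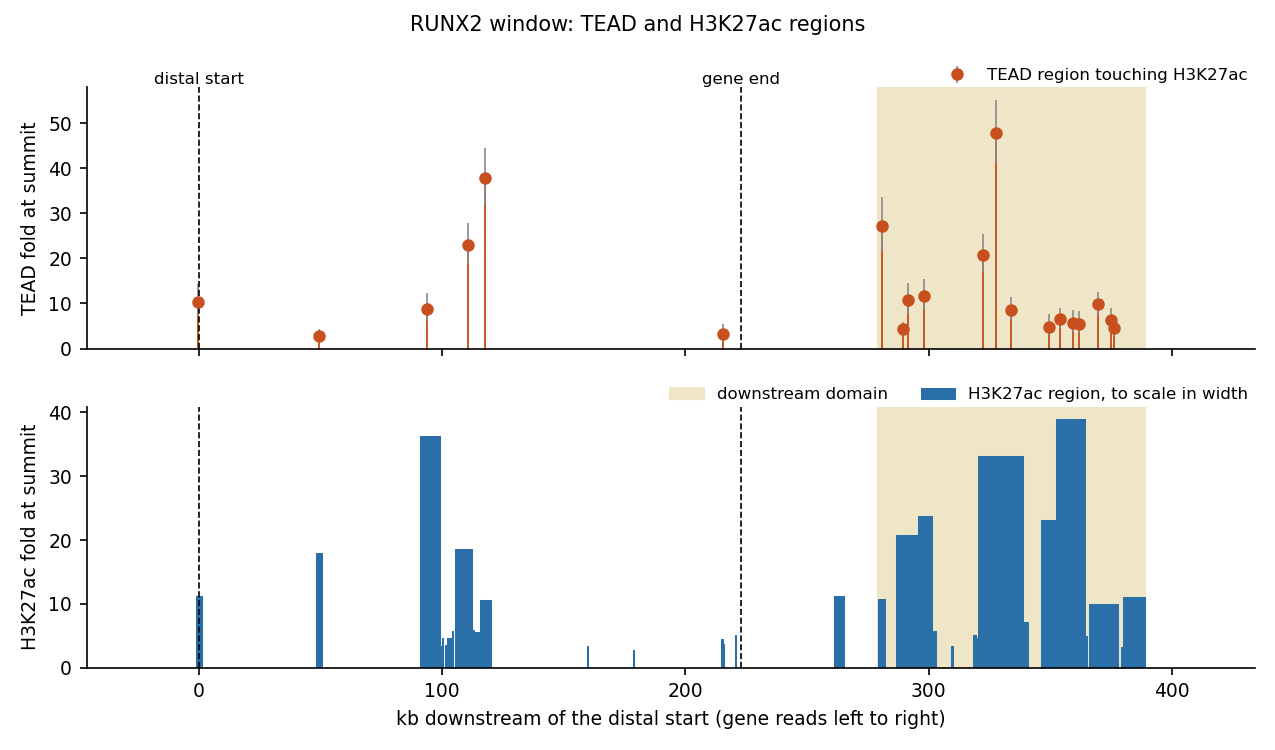
RUNX2 window with TEAD fold at each summit (upper panel, points with 95% Poisson intervals) and H3K27ac fold (lower panel, bars to scale in width) against kb from the distal start; shading marks the downstream domain. The highest points are 47.8-fold in the domain and 37.8-fold in the gene, and all 20 TEAD points touch H3K27ac.

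The largest acetylated unit of the family lies past the end of RUNX2. The downstream domain, chr6:45575300-45685030, begins 56.5 kb and ends 166 kb past the gene end at 45518819, on the side to which the gene is read. Its 15 H3K27ac regions covered 81.3 kb of a 110 kb span, or 74.1%, against a median of 51.7% in large domains. Acetylated width enters the rank, so a high share is in part built into a high rank. The domains at ranks 4 and 6 had 73.1 kb of 89.7 kb and 58.9 kb of 80.7 kb covered. The downstream domain ranked 5 of 22587 domains, a value that had a part in choosing it. With regions joined over gaps of up to 5 kb only, it broke into 4 pieces, the highest-ranked of 42.7 kb at rank 22. It held 68.5% of the acetylated sequence in the RUNX2 window and 14 of its 20 TEAD regions. In RefSeq's gene order on GRCh38.p14, RUNX2-AS1 is the next gene past RUNX2 and CLIC5, which encodes a chloride intracellular channel protein, the next protein-coding one, while SUPT3H overlaps RUNX2. Which gene the domain acts on was not measured.

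The acetylation of the domain was carried by a few wide regions. The strongest, chr6:45648459-45660195, reached 39.0-fold (33.0 to 45.7) on 148 reads, rank 33 of 52667. The widest, chr6:45616461-45634586, was 18126 bp, rank 23 by width, and reached 33.1-fold (27.9 to 39.1). Next by fold were chr6:45591680-45597502 at 23.9-fold, chr6:45642288-45648208 at 23.1-fold and chr6:45582431-45591485 at 20.8-fold. These 5 reached at least 20-fold and covered 50.7 kb. Over all windows 8 of 65 H3K27ac regions (12.3%) reached at least 20-fold, 6 at RUNX2, 2 at RUNX1 and 0 at RUNX3, against 6.55% of the whole list. The 8 include these 5, and fold had a part in choosing the domain. Outside the domain 1 of 18 regions at RUNX2 (5.56%), 2 of 28 at RUNX1 (7.14%) and 0 of 4 at RUNX3 reached it. The domain's other 10 regions ran between 3.31- and 11.05-fold, and 7 of its 15 regions (46.7%) touched TEAD, near the 41.7% of the whole list. Toward the far edge the recovered background was higher, at 9.88 reads for chr6:45662048-45673991 (9.93-fold, pileup 107) and 7.06 reads for chr6:45675946-45685030 (11.05-fold, pileup 88). The part of this background in the folds was not tested.

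TEAD signal in the domain was concentrated at 3 of the 14 summits. The leading one, chr6:45623412-45624285, reached 47.8-fold (41.1 to 55.2) on 182 reads, rank 393 of 35241, and its summit lies 367 bp from that of the widest H3K27ac region. The region chr6:45576200-45577282, at the edge nearest to RUNX2, reached 27.2-fold (21.7 to 33.6) on 82 reads. The third, chr6:45618139-45619434, reached 20.9-fold (16.9 to 25.5) on 93 reads in the same H3K27ac region as the leading one. The interval of the leading region overlaps no other in the domain. Those of the next 2 overlap each other and lie above all that follow, with any error of the background left out.

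Behind them came chr6:45593165-45594448 at 11.7-fold (8.63 to 15.5), chr6:45587149-45588096 at 10.7-fold (7.72 to 14.5) and chr6:45665328-45665812 at 9.84-fold (7.53 to 12.6). The other 8 ran between 4.24- and 8.64-fold. The 3 TEAD regions inside the strongest H3K27ac region were among these, at 6.53-, 5.74- and 5.52-fold. The strongest TEAD and the strongest H3K27ac summits of the domain thus lay in different H3K27ac regions. The H3K27ac folds of those regions were 33.1 (27.9 to 39.1) and 39.0 (33.0 to 45.7), so their order is within counting error. All 14 TEAD summits fell inside H3K27ac, against 55.3% of the whole list. The domain was built from H3K27ac regions, which cover 74.1% of its span. A share above that of the list is therefore in part built in. Neighbouring summits were a median of 5.36 kb apart.

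Among large domains, the downstream domain had a high mean H3K27ac fold and a density of TEAD summits below the pooled one by less than its counting error. Domains were ranked by summed fold times width, so a high mean fold is in part built into a rank of 5. The downstream domain's width-weighted mean H3K27ac fold was 22.2, at percentile 84.6 of the large domains, whose median was 16.5. It had 1.72 TEAD summits per 10 kb of acetylated sequence (exact Poisson interval 0.941 to 2.89), against 2.46 (2.39 to 2.53) over large domains pooled and 2.57 (2.53 to 2.60) over the whole list. That density is at percentile 19.0 of the large domains and the lowest of the 10 highest-ranked domains, which ran between 1.72 and 3.42. Within those 10 it was number 4 by acetylated length, number 4 by its strongest TEAD region and number 8 by mean H3K27ac fold.

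**Figure D2:**
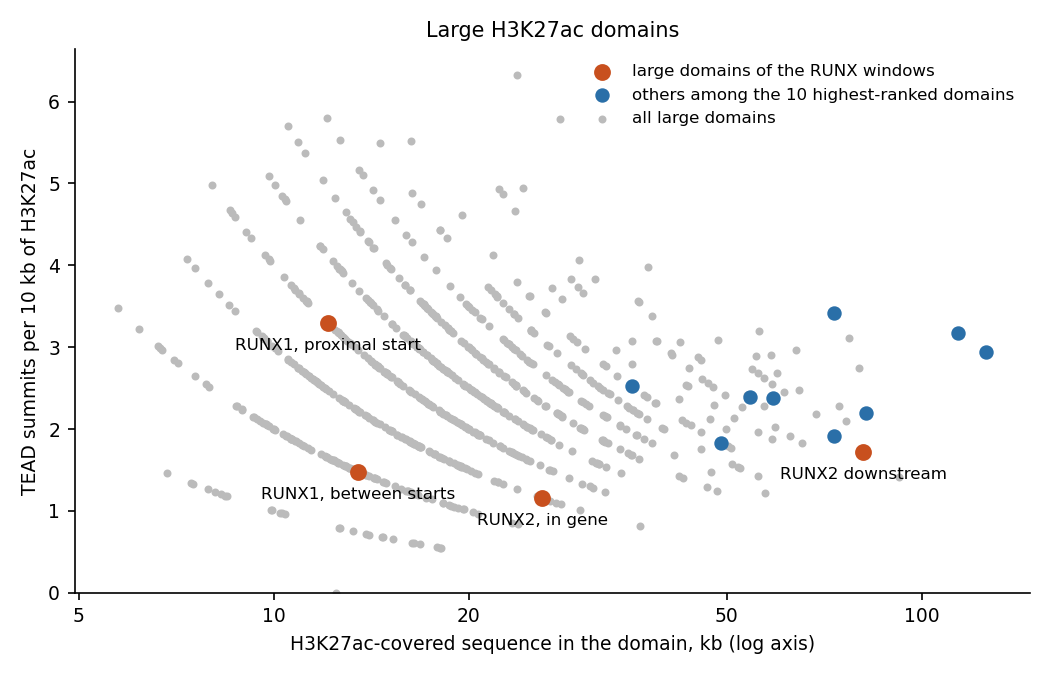
Each point is 1 large H3K27ac domain, by acetylated length in kb (horizontal log axis) and TEAD summits per 10 kb of H3K27ac (vertical axis); orange marks large domains in the RUNX windows, blue the other domains of the top 10, grey the rest. The RUNX2 downstream domain lies at 81.3 kb and 1.72, the lowest density of the top 10.

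RUNX1 had no domain of that size, and its strongest acetylation lay at its named starts. The TEAD region chr21:36260808-36261466 covers the proximal start at 36260987 with its summit 52 bp away, and reached 13.7-fold (10.3 to 17.8) on 54 reads. It lies in chr21:36253276-36265407, an H3K27ac region of 12132 bp and 29.998-fold (24.7 to 36.1), rank 95 by width. That region held 4 TEAD regions, the others at 7.49-, 5.50- and 5.01-fold, and alone made a large domain, rank 277.

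The distal start at 36421595, 161 kb away, was also covered by TEAD. The region chr21:36419202-36421709 reached 19.4-fold (15.4 to 24.2) on 77 reads, with its summit 1542 bp downstream of the start. At 2508 bp it was the 13th widest of the 35241 TEAD regions. The H3K27ac region around it, chr21:36417965-36424693, was 6729 bp wide and reached 26.5-fold (21.4 to 32.5). These start regions were the 2 H3K27ac regions of at least 20-fold at RUNX1. The interval at the distal start overlaps those of chr21:36357594-36363888 at 19.4-fold (15.2 to 24.5) and chr21:36179244-36181661 at 18.3-fold (14.6 to 22.7). Neither of these lies at a named start, and their order below the distal start region is within counting error.

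Between the starts, 8 TEAD regions had their summit more than 2 kb from either start. They ran between 3.33- and 9.41-fold, with a median of 5.71, and 4 of them touched H3K27ac. The H3K27ac region chr21:36357594-36363888 reached 19.4-fold and sits in a large domain of 35.5 kb, rank 858, that held 2 TEAD regions. More than 2 kb past the proximal start, in the direction the gene is read, 9 TEAD regions ran between 3.78- and 19.97-fold with a median of 8.43.

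The strongest TEAD region of the RUNX1 window touched no H3K27ac region. It is chr21:36148093-36148707, which reached 19.97-fold (15.4 to 25.6) on 61 reads, 3.54 kb from the nearest H3K27ac region. Its interval overlaps that of the distal start region at 19.4-fold, so their order is within counting error. The next unmarked one, chr21:36153738-36154264, reached 14.1-fold (10.4 to 18.8) and ended 39 bp from an H3K27ac region of 3.92-fold. Nearby, chr21:36135094-36135929 reached 13.2-fold (9.58 to 17.7) and bridged 2 H3K27ac regions of 4.01- and 4.17-fold. Further toward the proximal start, chr21:36179244-36181661 reached 18.3-fold in H3K27ac and held 2 TEAD regions of 10.1- and 8.43-fold. In all, 7 of 22 RUNX1 TEAD regions were unmarked, a share near that of the whole list (11132 of 35241), at 0.039 to 15.0 kb from H3K27ac. Unmarked means only that the H3K27ac list has no region there at this depth. It does not show that the mark is missing. Their median was 6.67-fold over a background of 2.10 reads, against 7.49-fold over 3.02 reads for the 15 marked ones. The whole list had 6.83-fold over 2.10 reads for unmarked and 7.41-fold over 2.81 reads for marked TEAD regions.

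**Figure D3:**
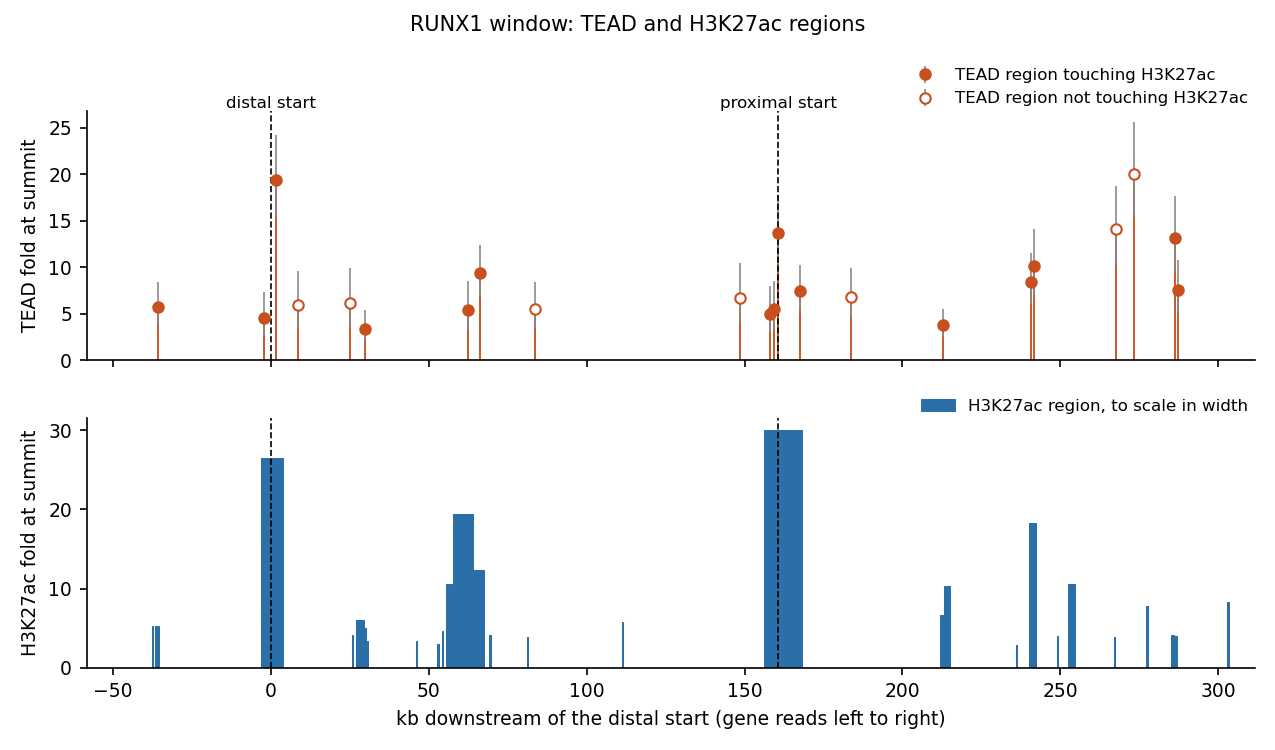
RUNX1 window with TEAD fold (upper panel, points with 95% Poisson intervals; open points touch no H3K27ac region) and H3K27ac fold (lower panel, bars to scale in width) against kb from the distal start. The tallest H3K27ac bars, 29.998- and 26.5-fold, sit on the starts, and the highest TEAD point, 19.97-fold, is open.

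RUNX3 held the fewest regions, in 2 small acetylated groups. The TEAD region chr1:25273109-25274091 reached 16.1-fold (12.9 to 19.9) on 85 reads, inside chr1:25272426-25277565, an H3K27ac region of 19.7-fold (15.7 to 24.4). In the other group, chr1:25239832-25242326 reached 12.2-fold in H3K27ac and contained the TEAD region chr1:25240805-25241833 at 8.06-fold (5.84 to 10.9). Beside it, chr1:25242278-25242739 reached 8.87-fold (6.47 to 11.9) and bridged that region and one of 4.10-fold. The remaining H3K27ac region of the window reached 4.81-fold and touched no TEAD region. The unmarked TEAD region chr1:25295375-25295848 reached 9.46-fold (6.20 to 13.9), 17.0 kb from H3K27ac. The intervals of the 3 weaker TEAD regions overlap each other. No hg19 start of RUNX3 was given in the sources used here, so no region is placed at one. The summits of the 2 strongest H3K27ac regions lie 35.5 kb apart in hg19, and the RefSeq starts 34.7 kb apart on GRCh38.p14, again in builds that were not aligned.

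**Figure D4:**
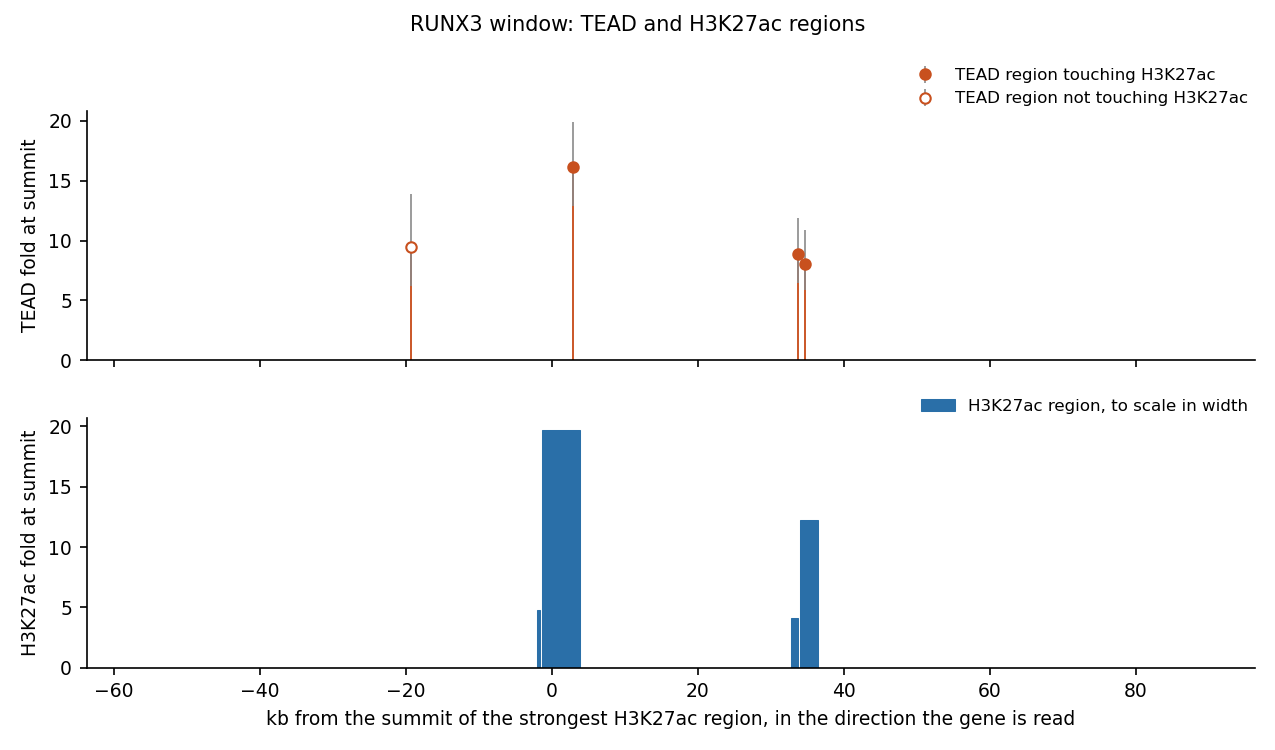
RUNX3 window with TEAD fold (upper panel, points with 95% Poisson intervals; the open point touches no H3K27ac region) and H3K27ac fold (lower panel, bars to scale in width) against kb from the strongest H3K27ac summit. TEAD reached 16.1-fold beside that summit and 8.06 to 9.46-fold at the other 3 regions.

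Across the family, the share of TEAD regions that touch H3K27ac was highest at RUNX2. All 20 RUNX2 regions were marked (83.9% to 100%), against 15 of 22 at RUNX1 (68.2%, 47.3% to 83.6%) and 3 of 4 at RUNX3 (75%, 30.1% to 95.4%). Together 38 of 46 were marked, 82.6% (69.3% to 90.9%), against 68.4% of the whole TEAD list. Of the 20 at RUNX2, 14 lie in the downstream domain, whose acetylation had a part in choosing it. Their marking is in part built in, also in the pooled share. The 6 RUNX2 regions outside the domain were all marked (61.0% to 100%). Regions in 1 domain are not independent of each other, which the intervals do not take into account. With the stricter demand that the summit lie in H3K27ac, 19 of 20 RUNX2, 11 of 22 RUNX1 and 2 of 4 RUNX3 regions did, against 55.3% of the list.

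Seen from the acetylated side, the loci were near the series. TEAD touched 28 of 65 H3K27ac regions, 43.1% (31.8% to 55.2%), against 41.7% of the whole list, with 14 of 33 at RUNX2, 11 of 28 at RUNX1 and 3 of 4 at RUNX3. The median width was 2963 bp for regions with TEAD and 514 bp for the rest, and in the whole list 1646.5 bp and 659 bp. A wide region can touch a TEAD region by its size alone. Regions of at least 5 kb numbered 13 of 65, with 9 at RUNX2, 3 at RUNX1 and 1 at RUNX3. The whole list had 1565 of 52667 (2.97%). Of the 13, 7 lie in the downstream domain, and width had a part in choosing it. Of these 13, TEAD touched 12, against 96.7% of such regions in the list. The exception was the far-edge region of the downstream domain, chr6:45675946-45685030, at 9085 bp and 3.50 kb from the nearest TEAD region, number 4 by width among the 52 wide regions without TEAD.

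In TEAD fold the family as a whole was close to the list, with more spread at RUNX2. The median was 8.71-fold at RUNX2, 6.75 at RUNX1 and 9.16 at RUNX3, and 7.82 over all 46, against 7.14 in the whole list. At least 10-fold was reached by 15 of 46 (32.6%), 8 at RUNX2, 6 at RUNX1 and 1 at RUNX3, against 30.4% of the list. RUNX2 spanned 2.72- to 47.8-fold, RUNX1 3.33- to 19.97-fold and RUNX3 8.06- to 16.1-fold. A TEAD region that bridged 2 or more H3K27ac regions with its summit outside them occurred 4 times in 46, 1 at RUNX2, 2 at RUNX1 and 1 at RUNX3, against 4.26% of the list.

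**Figure D5:**
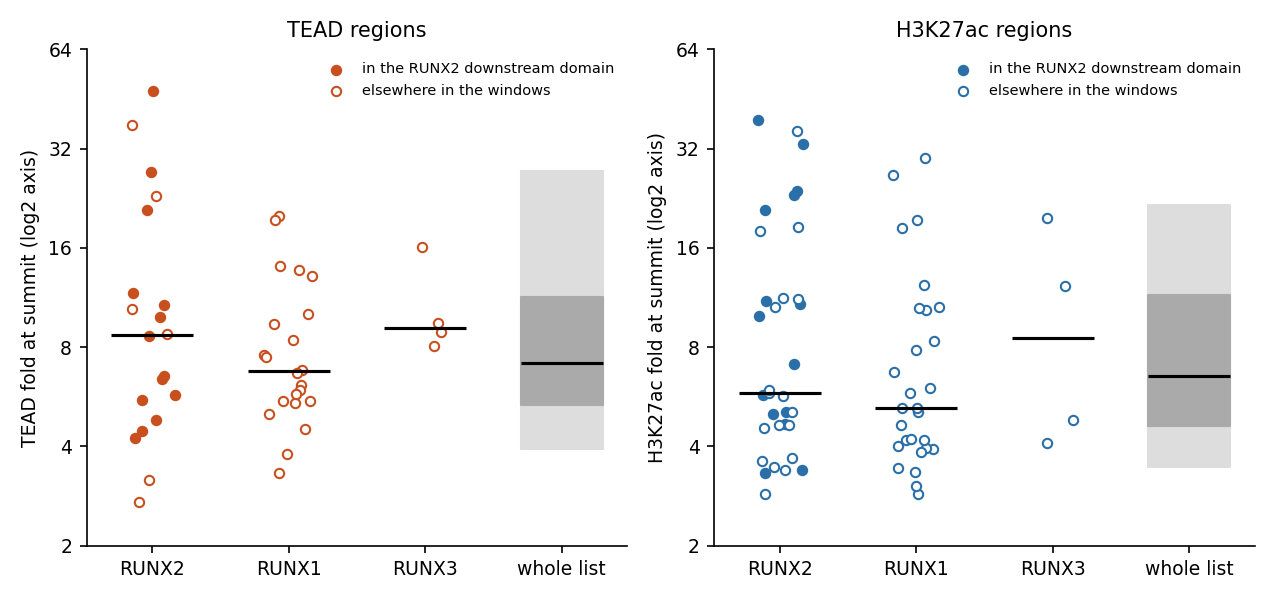
TEAD (left) and H3K27ac (right) fold of each region on a log2 axis, by locus; filled points lie in the RUNX2 downstream domain, lines are medians, and the grey column gives the 5th to 95th (light) and 25th to 75th (dark) percentile of the whole list. TEAD medians were 8.71-fold at RUNX2, 6.75 at RUNX1 and 9.16 at RUNX3, against 7.14 in the list.

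TEAD fold had a rank correlation near 0 with the fold of the H3K27ac region around it. Over the 32 TEAD regions with their summit in H3K27ac, which share 20 H3K27ac regions, Spearman's rho was -0.03 with H3K27ac fold and -0.03 with its width. Over the 19492 such regions of the whole list rho was -0.02 and 0.09. TEAD summits lay a median of 715.5 bp from the H3K27ac summit at the RUNX loci and 1848 bp in the downstream domain, against 400 bp in the list. This distance also differed by width. Widths were not matched within the groups given next. The domain's H3K27ac regions reached 18126 bp, against a 99th percentile of 7423 bp in the list. In H3K27ac regions of at least 5 kb the median was 1413 bp at the RUNX loci (23 TEAD regions) and 2714 bp in the downstream domain (13 TEAD regions), against 1327 bp in the list, and in narrower ones it was 512 bp at the RUNX loci (9 TEAD regions), against 358.5 bp in the list. Over the loci there were 1.80 TEAD summits per 10 kb of H3K27ac (1.23 to 2.55), with 1.60 at RUNX2 (0.963 to 2.50), 2.22 at RUNX1 (1.11 to 3.97) and 2.22 at RUNX3 (0.269 to 8.03), against 2.57 in the list.

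No member's summit lay nearer than 8.44 kb to a window edge. The TEAD members nearest to an edge of the RUNX2 window were at 10.4- and 4.47-fold, 45.9 and 57.7 kb inside, and the next regions outside were at 8.05- and 4.88-fold, 46.4 and 29.5 kb out. At RUNX1 the nearest TEAD members reached 7.57- and 5.77-fold, with 6.83- and 5.64-fold outside. At RUNX3 they reached 8.06- and 9.46-fold, with 6.98- and 5.85-fold outside. The H3K27ac regions next outside the windows ran between 3.85- and 6.28-fold.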

How the data were processed

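The deposited files were 1 peak list each for TEAD and H3K27ac, called per library. Data of the input library were not used here. Reads were handled with fastp, Bowtie2 2.4.5 and MACS2 on the build hg19, per the submitters' processing notes, which state no role or setting. No source used here gives the calling threshold or the control. The authors deposited a fold (a ratio to local background), a −log10 p and a −log10 q for each summit, and a whole-number score, which was not used. These are the authors' values for each peak. The lowest −log10 q was 2.03 for TEAD and 2.05 for H3K27ac. The total read count is unknown. Peaks on chromosome Y were left out. Coordinates count from 1.

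Pileup k and background b were solved as the pair with k whole that gives both deposited values, taking the fold as (k + 1)/(b + 1) and p as the upper Poisson tail beyond k. This held within 0.002 of −log10 p for 100% of both lists. The arithmetic was checked on values simulated from the same formulas, which does not test the formulas themselves. That b is the caller's local background was assumed. Overlap means at least 1 bp. H3K27ac regions were joined over gaps of up to 12.5 kb. Python 3.11.15, pandas 2.3.3 and scipy 1.17.1 were used. The members and lists were chosen with earlier results of these data known.

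Named with values are, per gene, the 5 TEAD and 4 H3K27ac regions of highest fold, those nearest to each named start and the strongest unmarked TEAD region. In the downstream domain they are the TEAD regions (by range beyond the strongest 6) and the widest and strongest H3K27ac regions. Other named regions, such as hosts and neighbours of these, were chosen after their values were seen. Alternatives were other overlap rules, thresholds and joining gaps. Motifs were searched in promoters only, since no genome of the files' build was used here.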

Additional observations from a re-analysis of the deposited data

How the results depend on the processing

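Shares were set against the 95% interval of the reported share, and the other values against a change of 1.5 times. Of 39 alternatives, 34 stayed within these limits and 5 moved. The limits are wide where regions are few. At RUNX3 they run from 30.1% to 95.4%, so 50% against 75% of TEAD regions counted as staying. The 39 also count pooled and per-gene shares separately, though these rest on the same regions. With a TEAD summit required inside, the share of H3K27ac regions with TEAD was 30.8% at the RUNX loci (20 of 65), against 43.1% with any overlap. At RUNX1 it was 21.4%, against 39.3%. In the whole list 16005 of 52667 H3K27ac regions held a TEAD summit, against 21966 with any overlap. With only regions of at least 5-fold the share of H3K27ac regions with TEAD was 100% at RUNX3 (2 of 2 regions), against 75%. Joining over gaps of up to 5 kb split the RUNX2 downstream domain into 4 pieces, the highest-ranked of which spanned 42.7 kb at rank 22, against 110 kb at rank 5. With gaps of up to 20 kb it spanned 128 kb at rank 7, and by summed width alone it ranked 5. The TEAD motif share within TEAD regions was not run. No paired analysis was possible because each antibody has 1 library, and none could be left out. Depth limits the weak regions most: at 11 reads the interval on a fold spans 1.71 to 5.43.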
